A study of Mus musculus with 4 samples.

Results

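The 98 genes described here encode plasma membrane and lysosomal carriers of sugars, amino acids and monocarboxylates. They were taken by symbol from solute carrier families 1, 2, 3, 5, 6, 7, 16, 36, 38 and 43 of the mouse nomenclature. Each is a protein-coding gene whose symbol ends in its member number, out of 45777 genes in the deposited mm10 table. Symbols with a further letter after that number were not taken, so the families may hold other genes. No expression value entered that rule, though the families were chosen with earlier results of these data known. The question was how far their transcripts differed in microglial cells after activation of the retinoid X receptor, RXR, by an added ligand.

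RNA-seq was carried out on MG5, a mouse microglial cell line labelled wild type, which in both groups grew in a mixture of 30% fresh medium and 70% medium taken from astrocyte-like cells of the A1 type. Replicates 1 and 3 of the 6OHA group had 10 µM of this RXR agonist, which is known here only by its code name, for 6 h. Replicates 1 and 2 of the control group came from untreated cells, and whether these received the solvent is not given in the labels. MG5 is a single immortalized line, and the labels do not say that libraries came from separate cultures, so p-values measure the spread among these 4 libraries alone, and that spread may be technical. The deposited table holds these 4 libraries alone.

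Solute carriers move nutrients down a gradient or couple them to sodium, protons or another solute. Family 2 holds the facilitative glucose transporters, family 5 sodium-coupled carriers of sugars and vitamins, and family 16 the proton-coupled carriers of lactate and pyruvate along with carriers of aromatic amino acids. Families 1, 6, 7, 36, 38 and 43 carry amino acids and related compounds, and family 3 supplies the heavy chains that bring family 7 light chains to the plasma membrane. In microglia these carriers set the supply of glucose and glutamine, and the cystine/glutamate exchanger is a route by which the cells release glutamate.

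Counts summed to 31057950 and 35314782 in the 6OHA libraries and to 42541641 and 34406649 in the control libraries. At that depth 3 counts correspond to 0.0966 and 0.0850 CPM, counts scaled to a common library size, in 6OHA and to 0.0705 and 0.0872 CPM in control, limits that cover counting error only. Among 8 targets of RXR and its partner receptors, 7 rose, beside 1.39% of all tested genes called higher. Plin2, a lipid droplet coat protein, for instance had 1782 and 1783 CPM in 6OHA against 414 and 412 CPM in control. These targets were listed with earlier results of these data known, so they are not an independent check of the treatment. The 12 microglia and macrophage markers were all detected and summed to 3060 to 3240 FPKM (fragment counts scaled for transcript length and library size) in 6OHA and 3110 to 3350 FPKM in control. Of these, 1 fell, the fractalkine receptor gene Cx3cr1, at 21.2 and 21.3 CPM in 6OHA against 38.3 and 36.2 CPM in control. Markers of neurons, oligodendrocytes, vessels, fibroblasts and lymphocytes each summed to at most 39.1 FPKM in a 6OHA library and 46.7 FPKM in a control library. Among them the neuronal marker gene Map2 fell, at 6.23 and 6.70 CPM in 6OHA against 11.2 and 10.7 CPM in control, with an adjusted p of 0.0273 by edgeR. Of the 3 tested neuronal markers, 2 had estimates below 0 and 1, Syn1, above. Syn1 had 25.8 and 23.2 CPM in 6OHA against 15.4 and 17.8 CPM in control, with an adjusted p of 0.0568 by edgeR. The neuronal markers summed to 8.79 to 8.99 FPKM in 6OHA and 7.94 to 8.6 FPKM in control. Library differences within each group followed the GC content of the transcripts. The Spearman rho of the log difference, replicate 1 over the other library, with GC was −0.535 in 6OHA and −0.562 in control over the 47 tested transporter genes. Over 13658 genes it was −0.463 in 6OHA and −0.566 in control.

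Of the 98 transporter genes, 31 had 0 counts in all 4 libraries, 20 had too few counts to test, with at most 13 in any library, and 47 were tested. By level per transcript length, 23 reached a mean of 10 FPKM and 37 a mean of 1 FPKM. The most abundant was Slc6a6, the taurine transporter, with 157 and 172 FPKM in the 6OHA libraries and 155 and 146 FPKM in the control libraries. It held 16.3% of the summed FPKM of the 98 genes. Next came Slc3a2, the CD98 heavy chain, with 80.4 and 77.2 FPKM in 6OHA and 84.9 and 99.3 FPKM in control. Slc6a8, the creatine transporter, had 60.4 and 62.5 FPKM in 6OHA against 59.7 and 58.6 FPKM in control. Slc2a1, the glucose transporter GLUT1, had 47.8 and 59.0 FPKM in 6OHA against 52.6 and 58.2 FPKM in control. The 2 SLC38 genes Slc38a2 and Slc38a10 and the arginine carrier Slc7a2 followed, with means of 48.5, 47.2 and 36.5 FPKM over the 4 libraries, and these 7 genes together made up 50.7% of the sum. Slc2a1, Slc38a2 and Slc38a10 lay within the spread of one another's libraries, as did Slc1a5, Slc16a3, Slc2a6 and Slc7a8, at means of 36.01, 35.9, 35.8 and 34.5 FPKM. The sum over all 98 genes was 931 and 996 FPKM in 6OHA and 969 and 973 FPKM in control, so the control sums lay between the 6OHA sums.

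**Figure D1:**
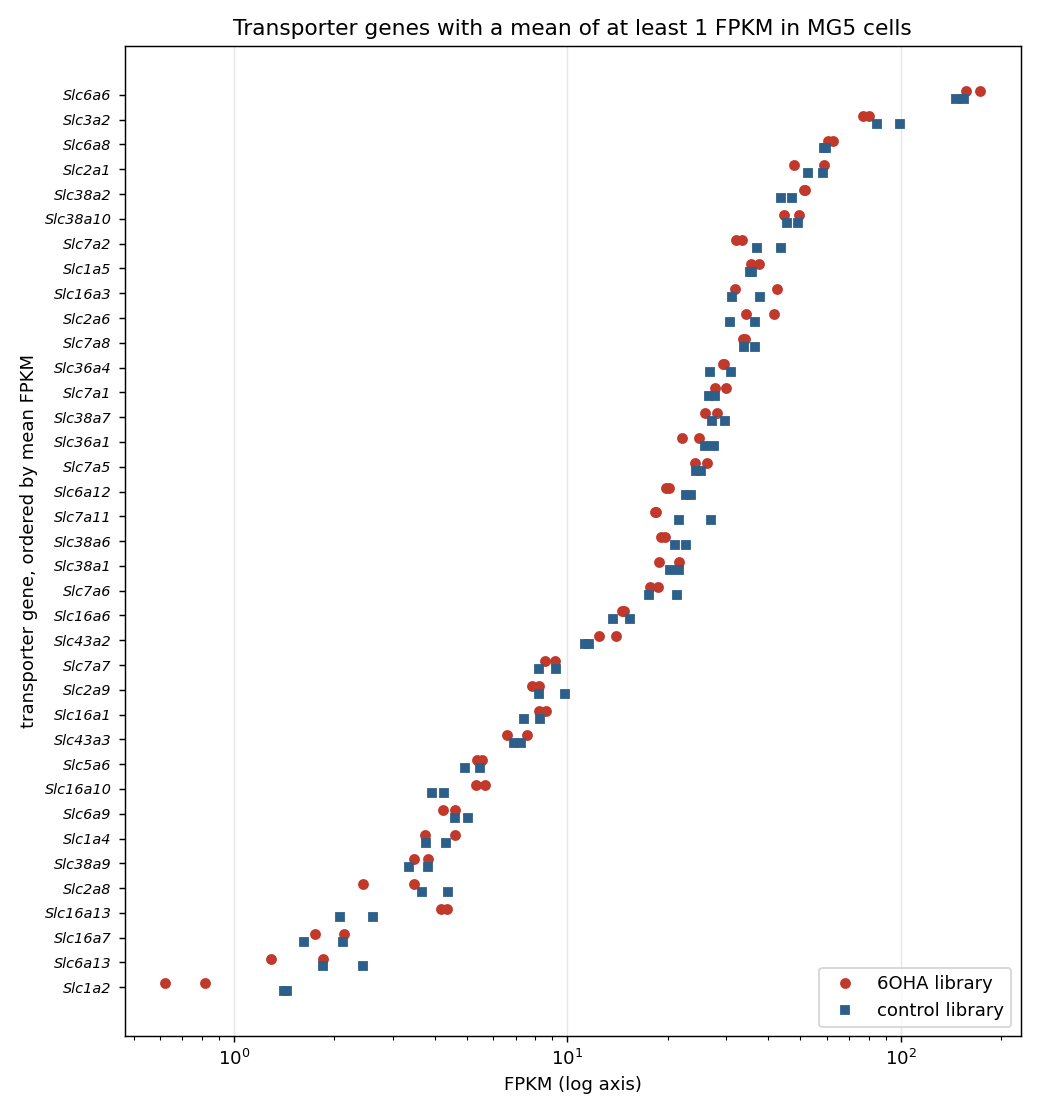
Levels of the 37 transporter genes with a mean of at least 1 FPKM, with FPKM on a log axis and 1 point per library for 6OHA (circles) and control (squares). Slc6a6 stands highest, at 157 and 172 FPKM in 6OHA and 155 and 146 FPKM in control, and for most genes the points of both groups lie close together.

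Between 6OHA and control, 1 of the 47 tested transporter genes passed the threshold, an adjusted p under 0.05 over all tested genes by edgeR's quasi-likelihood test. That is 2.13% of them, beside 2.02% of the 14634 genes tested in all, of which 203 (1.39%) were higher and 92 (0.629%) lower in 6OHA. The gene was the monocarboxylate transporter gene Slc16a13, which rose. None of the 47 passed as lower, while 3 had an unadjusted p under 0.05 in that direction, and neither DESeq2 nor limma-voom called a lower one. Outside family 16, none of the 40 tested genes passed with edgeR, DESeq2 or limma-voom, and 5 had an unadjusted p under 0.05. At an unadjusted p under 0.05 there were 7 transporter genes (14.9%), against 10.9% of all tested genes. The libraries of the groups did not overlap for 11 transporter genes higher in 6OHA, beside 18.7% of all tested genes, and for 10 lower in 6OHA, beside 20.1% of all tested genes. Together these were 44.7% of the 47, against 38.8% of all tested genes.

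The estimated log2 fold changes, 6OHA minus control, ran from −0.72 to 0.91 with a median of 0.05, against a median of −0.0061 over all tested genes. They lay above 0 for 25 transporter genes and below 0 for 22. For 33 of the 47 the 95% interval of the difference stayed within 1.5-fold in both directions, and for 38 it stayed within 2-fold. Over all tested genes, 9410 of 14634 had an interval within 1.5-fold. In simulated libraries of this depth, genes changed 1.5-fold were called in 54.6% of cases, those changed 2-fold in 78.8% and those changed 4-fold in 92.1%. The changed genes were drawn from all tested genes, low ones included, so these shares are not those of the transporter genes. The simulated counts took their spread from the mean level of a gene alone and held no GC trend between libraries. Recovery in the real libraries may therefore differ. A 1.5-fold change of a single transporter gene, above all a low one, could still be missed.

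**Figure D2:**
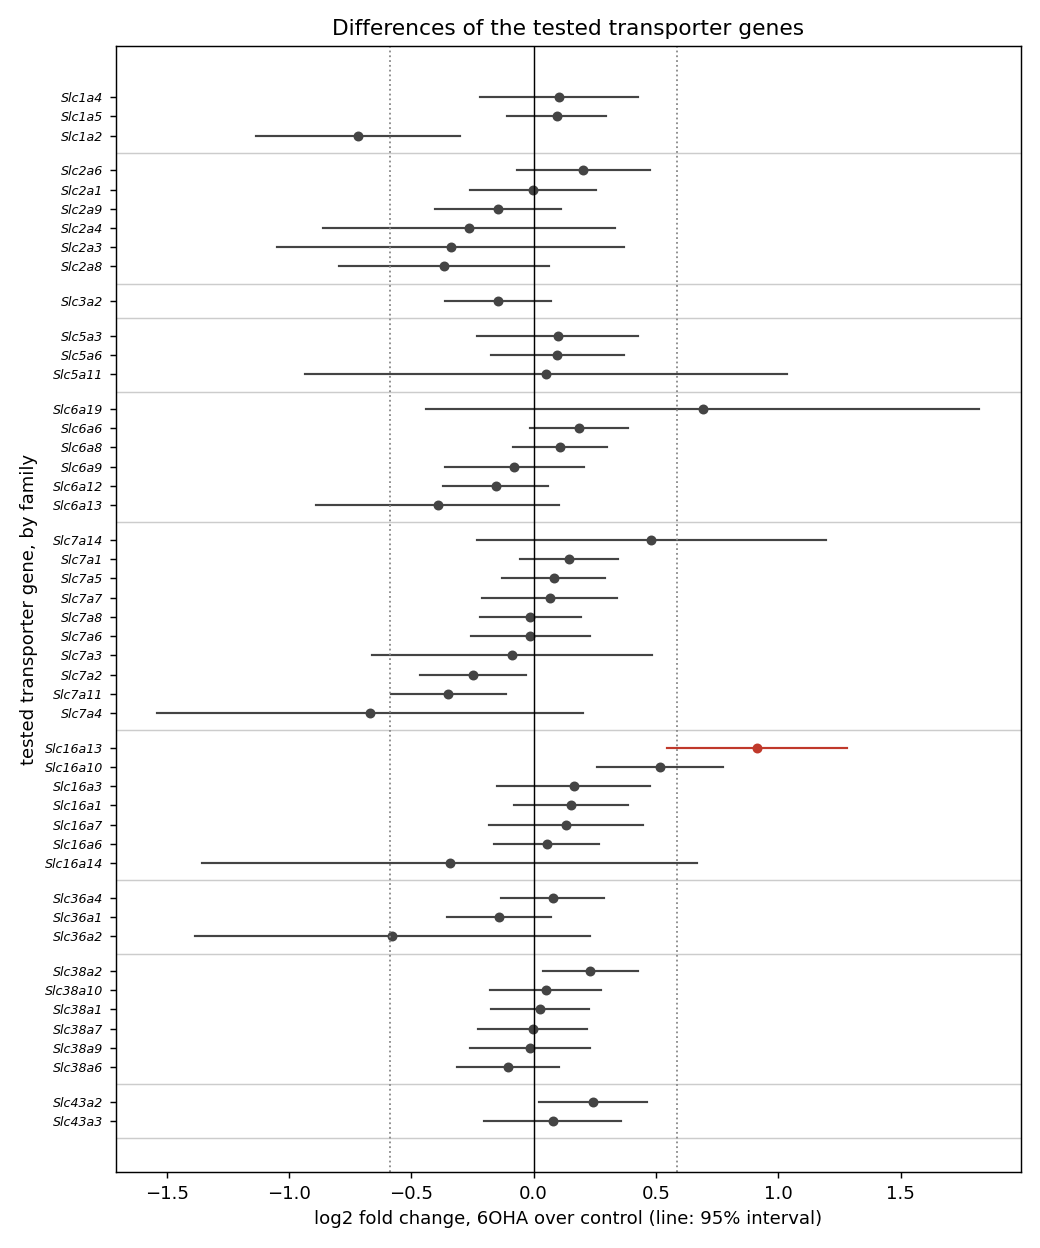
Log2 fold change (6OHA minus control) of the 47 tested transporter genes with its 95% interval, grouped by solute carrier family. Only Slc16a13, at 0.91, passed the threshold. Slc16a10 at 0.52 and Slc1a2 at −0.72 were the nearest outside it, and the widest intervals belong to low genes such as Slc6a19.

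**Figure D3:**
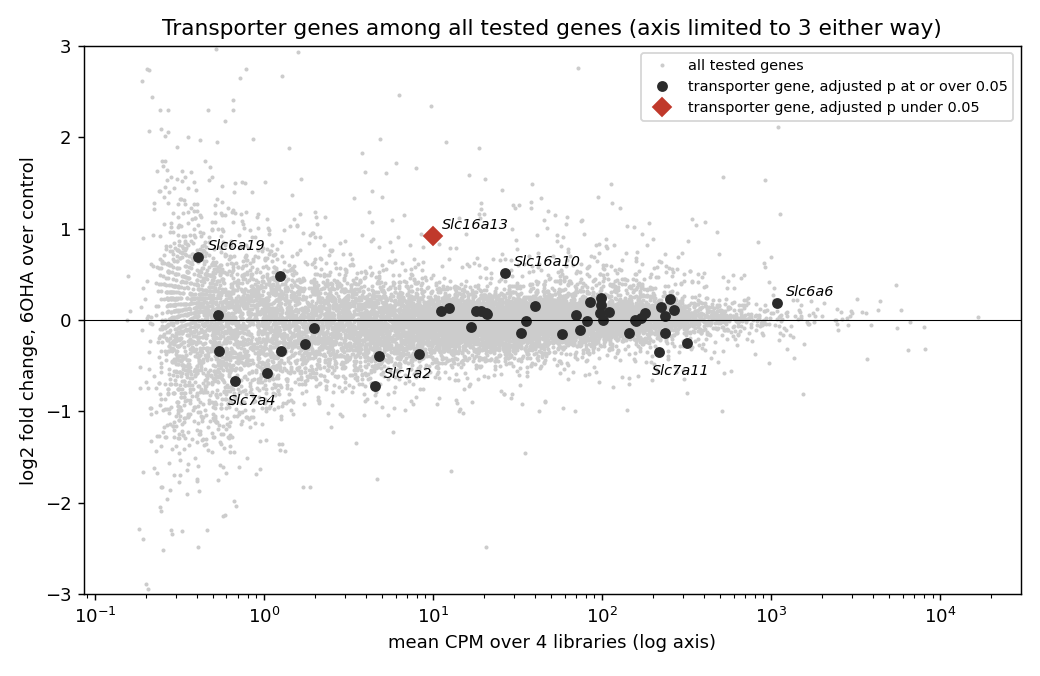
Log2 fold change (6OHA minus control) against mean CPM over the 4 libraries (log axis) for the 14634 tested genes, with the 47 transporter genes marked and the vertical axis limited to 3 either way. The transporter genes lie between −0.72 and 0.91, and Slc16a13 is the 1 among them that passed.

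Family 16 held the one transporter gene that rose and 6 of its 7 tested members had estimates above 0, with a median of 0.15. Over all tested genes, 7114 of 14634 had estimates above 0. The 95% intervals of Slc16a1, Slc16a3, Slc16a6 and Slc16a7 spanned 0. Slc16a13 (Entrez gene 69309, minus strand, chr11:70216789-70222740 in mm10), which encodes the monocarboxylate transporter MCT13, had 12.8 and 13.2 CPM in the 6OHA libraries against 5.94 and 7.95 CPM in the control libraries. Before scaling, the deposited counts were 395 and 460 for the 6OHA libraries, against 255 and 276 for the control libraries. Both 6OHA libraries lay above both control libraries, and the 6OHA libraries lay closer together. The Slc16a13 transcript is 57.7% GC. Replicate 1 was below the other library in both groups, with log2 differences of −0.038 in 6OHA and −0.42 in control. The mean was 13.0 ± 0.243 CPM in 6OHA and 6.95 ± 1.42 CPM in control (SD, n = 2 each), a log2 fold change of 0.91 ± 0.17 (SE) or 1.89-fold, with a 95% interval from 0.55 to 1.28 and an adjusted p of 0.0173 by edgeR. Per length it remained a gene of low to moderate level, at 4.37 and 4.19 FPKM in 6OHA and 2.08 and 2.61 FPKM in control. Without control replicate 1 the log2 fold change was 0.71 with an adjusted p of 0.0596, and the call was also lost without a filter on low counts and on the FPKM and TPM scales, with adjusted p from 0.0681 to 0.104.

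Slc16a11, which encodes another monocarboxylate carrier and lies 375 bases from Slc16a13 on the opposite strand, had 0 counts in all 4 libraries. Slc16a10 (Entrez gene 72472, chr10:40033532-40142270), the aromatic amino acid transporter TAT1, had 32.4 and 30.4 CPM in 6OHA against 23.2 and 20.6 CPM in control. Its groups did not overlap, with means of 31.4 ± 1.37 CPM in 6OHA and 21.9 ± 1.80 CPM in control (SD, n = 2 each). The log2 fold change was 0.52 ± 0.12 (SE; 95% interval 0.26 to 0.77) and the adjusted p 0.0530 by edgeR, just outside the threshold. It came inside under 5 of 16 alternatives, among them DESeq2 with an adjusted p of 0.0138 and a GC correction with 0.00774.

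The classical lactate and pyruvate carriers of family 16 did not pass. Slc16a3, which encodes MCT4, the exporter of lactate in glycolytic cells, had 89.7 and 118 CPM in 6OHA and 82.9 and 102 CPM in control. The groups overlapped, and the log2 difference of 0.16 had a 95% interval from −0.15 to 0.48. Its transcript is 58.1% GC, and replicate 1 was below the other library in both groups, with log2 differences of −0.39 in 6OHA and −0.31 in control. Slc16a1, encoding MCT1, had 43.2 and 41.5 CPM in 6OHA and 39.7 and 36.4 CPM in control, groups that did not overlap, with a log2 difference of 0.15 (95% interval −0.08 to 0.39). Slc16a7, encoding the high-affinity pyruvate carrier MCT2, had 13.3 and 12.8 CPM in 6OHA against 12.9 and 10.8 CPM in control. Slc16a6, encoding MCT7, had 70.0 and 72.0 CPM in 6OHA against 71.3 and 65.5 CPM in control. Both overlapped between the groups, as did the low gene Slc16a14, which was under 1 CPM in every library.

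**Figure D4:**
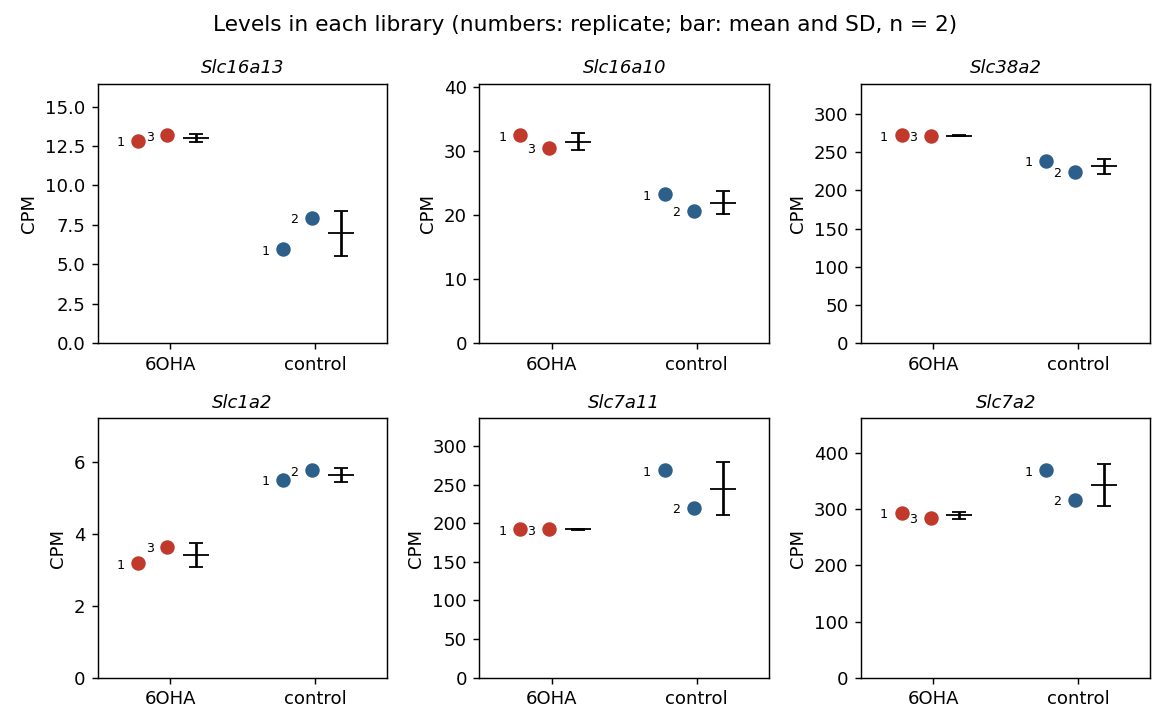
CPM per library, with axes from 0, for the 6 transporter genes with the smallest p, 6OHA left and control right, with a bar for the mean and SD of each group (n = 2). Slc16a13 (12.8 and 13.2 against 5.94 and 7.95 CPM) and Slc16a10 (32.4 and 30.4 against 23.2 and 20.6 CPM) are higher in 6OHA, and Slc1a2 (3.18 and 3.64 against 5.50 and 5.76 CPM) and Slc7a11 (192 and 192 against 269 and 220 CPM) lower.

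None of the sugar carriers was called. Slc2a1, encoding GLUT1, the sugar carrier gene with the highest FPKM here, had 139 and 172 CPM in 6OHA and 147 and 165 CPM in control. Both control libraries lay between the 6OHA libraries, and the 95% interval of the log2 difference ran from −0.26 to 0.26. Slc2a6, which encodes GLUT6, a lysosomal carrier of macrophages, had 82.9 and 97.6 CPM in 6OHA and 70.6 and 86.4 CPM in control. It was the only one of the 6 tested family 2 genes with an estimate above 0, at 0.20 with an interval from −0.07 to 0.47, and the groups overlapped. Slc2a8, encoding the intracellular carrier GLUT8, had 5.88 and 8.39 CPM in 6OHA against 8.36 and 10.2 CPM in control. The groups overlapped at their edge, with a log2 difference of −0.37 (95% interval −0.80 to 0.06, adjusted p 0.560 by edgeR).

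The urate carrier gene Slc2a9 had 31.04 and 32.3 CPM in 6OHA and 37.8 and 32.2 CPM in control, a log2 difference of −0.15. Slc2a3, encoding the high-affinity glucose carrier GLUT3 of neurons, and Slc2a4, encoding the insulin-responsive GLUT4, were at 1.09 to 1.77 CPM in 6OHA and 1.15 to 2.00 CPM in control, and Slc2a4 was lower in 6OHA without overlap, at a log2 difference of −0.26 (95% interval −0.86 to 0.33). The fructose carrier gene Slc2a5, a marker of microglia in brain tissue, had too few counts to test. Of the sodium-coupled family 5, the multivitamin carrier gene Slc5a6 had 19.5 and 20.2 CPM in 6OHA and 17.5 and 19.6 CPM in control, and 22.9% of its 31-base stretches occur in another transcript, so its reads may not be its alone. The myo-inositol carrier gene Slc5a3 had 12.3 and 10.9 CPM in 6OHA and 11.6 and 9.91 CPM in control, and Slc5a11 was under 1 CPM in every library. Both of these and Slc5a6 overlapped between the groups. The intestinal glucose cotransporter gene Slc5a1 and the sodium-coupled monocarboxylate carrier genes Slc5a8 and Slc5a12 had 0 counts throughout.

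Among the glutamate and neutral amino acid carriers of family 1, the astrocytic glutamate transporter gene Slc1a2 (GLT-1, Entrez gene 20511, chr2:102658239-102790784) had the largest estimate below 0 of the 47 genes. It had 3.18 and 3.64 CPM in 6OHA and 5.50 and 5.76 CPM in control. Both 6OHA libraries lay below both control libraries, with means of 3.41 ± 0.321 CPM in 6OHA and 5.63 ± 0.187 CPM in control (SD, n = 2 each). The log2 difference of −0.72 ± 0.19 (SE; 95% interval −1.13 to −0.30) did not pass, with an adjusted p of 0.101 by edgeR. Of 15 alternatives 1, the GC correction, brought it inside the threshold, at 0.0298. Slc1a2 overlaps the long noncoding gene LOC115489466, and whether counting used strand is not given in the sources used here, so reads of the 2 genes could not be separated.

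The 10 astrocyte markers, of which Slc1a2 is 1, summed to 4.18 to 4.33 FPKM in 6OHA and 6.51 to 6.59 FPKM in control, and Gfap, Aqp4 and Sox9 had 0 counts in every library. Only 3 of the 10 had counts enough to test, of which 2 had an unadjusted p under 0.05 and none passed with edgeR, DESeq2 or limma-voom. The 8 markers other than Slc1a2 and Slc1a3 summed to 3.36 and 3.70 FPKM in 6OHA against 5.10 and 5.15 FPKM in control. Nearly all of that sum was 1 gene, Aldh1l1, which encodes a folate enzyme, at 3.32 and 3.59 FPKM in 6OHA against 4.96 and 4.91 FPKM in control, with an adjusted p of 0.128 by edgeR. Of the other 7, 3 were at 0 and the highest, Gja1, was at 0.0208 and 0.0749 FPKM in 6OHA and 0.0831 and 0.160 FPKM in control. The part of Aldh1l1 or of these markers in the Slc1a2 difference was not tested. In such bulk libraries fewer cells of a type and less RNA per cell cannot be told apart. The other glial glutamate transporter gene, Slc1a3 (GLAST), had too few counts to test. Slc1a5, which encodes the glutamine carrier ASCT2, had 111 and 117 CPM in 6OHA against 107 and 107 CPM in control, without overlap, and a log2 difference of 0.09 (95% interval −0.11 to 0.30). Slc1a4, encoding the serine and alanine carrier ASCT1, had 16.7 and 20.6 CPM in 6OHA against 15.98 and 18.8 CPM in control, which overlapped.

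Family 7 divides into cationic amino acid carriers, which import arginine, and light chains that pair with the Slc3a2 heavy chain. None of its 10 tested genes passed, and 4 had estimates above 0 and 6 below, with a median of −0.01. Of the arginine carriers, Slc7a2 had 294 and 285 CPM in 6OHA against 370 and 317 CPM in control, both 6OHA libraries below both control libraries. Its log2 difference was −0.25 ± 0.10 (SE; 95% interval −0.47 to −0.03) with an adjusted p of 0.359 by edgeR. Slc7a1 had 225 and 245 CPM in 6OHA and 215 and 211 CPM in control, also without overlap and in the opposite direction, with a log2 difference of 0.14 (95% interval −0.05 to 0.34). Slc7a3 was at 1.69 and 2.15 CPM in 6OHA and at 1.96 and 2.16 CPM in control.

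Slc7a11 (Entrez gene 26570, chr3:50364936-50499087) encodes xCT, the light chain that exchanges extracellular cystine for intracellular glutamate. It had 192 and 192 CPM in 6OHA against 269 and 220 CPM in control, with means of 192 ± 0.0878 CPM in 6OHA and 244 ± 34.2 CPM in control (SD, n = 2 each). The 6OHA libraries lay together below both control libraries, which differed from each other. The log2 difference of −0.35 ± 0.11 (SE; 95% interval −0.58 to −0.11) did not pass, with an adjusted p of 0.177 by edgeR. The value depended on the control library used. Without control replicate 2 it was −0.48 with an adjusted p of 0.0175, and without control replicate 1 it was −0.20. With the GC correction the adjusted p by edgeR was 0.0162. Slc7a11 passed in 2 of 16 alternatives. The heavy chain gene Slc3a2 had 224 and 223 CPM in 6OHA against 229 and 266 CPM in control, with a log2 difference of −0.14 (95% interval −0.36 to 0.07).

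The mouse Slc7a11 promoter is known for a pair of amino acid response elements, sites for ATF4 with C/EBP partners, so the 250 bases before its start were searched for the letters TGATGNAA on both strands, together with the nuclear receptor motif AGGTCA and the E-box CACGTG. Of all 32851 promoters in the RefSeq table of GRCm38.p6, 1134 (3.45%) held TGATGNAA, 4607 held AGGTCA and 1978 (6.02%) held CACGTG within the same length. An entry existed for 70 of the 98 transporter genes and for 32 of the 47 tested ones, of which 2 held TGATGNAA, 6 AGGTCA and 4 CACGTG. These are counts of genes, whereas the shares above are of promoters, so they are not directly comparable. Slc7a7 was counted for AGGTCA, though its stretch printed below does not hold that motif. The 2 with TGATGNAA were Slc7a11 and Slc7a7, both light chain genes, and they are shown because the element is the one known from this family. The sequences are from RefSeq, minus strand, 5′ to 3′, with the motif on either strand in capitals. That of Slc7a11 is chr3:50443614-50443863 and that of Slc7a7 is chr14:54417945-54418194, and both lie inside the annotated genes, which extend further upstream.
Slc7a11: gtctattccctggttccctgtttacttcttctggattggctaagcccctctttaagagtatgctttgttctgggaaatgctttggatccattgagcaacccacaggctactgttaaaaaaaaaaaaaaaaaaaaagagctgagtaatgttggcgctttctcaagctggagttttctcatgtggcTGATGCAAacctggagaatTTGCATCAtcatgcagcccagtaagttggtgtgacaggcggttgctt
Slc7a7: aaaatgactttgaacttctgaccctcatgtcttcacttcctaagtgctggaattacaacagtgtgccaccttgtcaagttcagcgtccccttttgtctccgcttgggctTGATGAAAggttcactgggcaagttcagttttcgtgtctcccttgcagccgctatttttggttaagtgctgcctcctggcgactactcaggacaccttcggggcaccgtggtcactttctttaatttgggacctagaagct
In Slc7a11 the letters stand at 66 to 59 and, on the opposite strand, at 47 to 40 bases before the start, and in Slc7a7 at 141 to 134. A match of letters is a description of the sequence and not evidence of binding. Slc7a7, which encodes the light chain y+LAT1, had 22.01 and 20.7 CPM in 6OHA and 19.0 and 21.9 CPM in control, overlapping groups with a log2 difference of 0.07, beside −0.35 for Slc7a11. Atf4 itself had 298 and 311 CPM in 6OHA and 263 and 286 CPM in control, a log2 difference of 0.15 with an adjusted p of 0.652 by edgeR.

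The remaining light chains overlapped between the groups. Slc7a8, encoding LAT2, had 157 and 158 CPM in 6OHA and 150 and 167 CPM in control, with a 95% interval of the log2 difference from −0.22 to 0.19. Slc7a5, encoding the leucine carrier LAT1, had 96.3 and 105 CPM in 6OHA and 92.6 and 97.6 CPM in control. Slc7a6, encoding y+LAT2, had 84.1 and 78.2 CPM in 6OHA and 89.0 and 74.5 CPM in control. Summed over Slc7a5, Slc7a6, Slc7a7, Slc7a8 and Slc7a11, the light chains reached 104 and 105 FPKM in 6OHA and 115 and 110 FPKM in control. The ratio of Slc3a2 to that sum was 0.773 and 0.738 in 6OHA against 0.741 and 0.902 in control, so 1 control library set the range and the groups overlapped. The low members Slc7a14, a lysosomal protein, with 1.23 and 1.63 CPM in 6OHA against 0.909 and 1.18 CPM in control, and Slc7a4, under 1 CPM in every library, did not overlap but had 95% intervals that spanned 0.

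Family 6 carries taurine, creatine, betaine and neurotransmitters with sodium and chloride, and held the highest levels of all 10 families, with summed levels of 243 and 262 FPKM in 6OHA and 244 and 235 FPKM in control. Slc6a6, the taurine transporter gene, had 1093 and 1208 CPM in 6OHA against 1029 and 992 CPM in control, means of 1150 ± 81.4 CPM in 6OHA and 1011 ± 26.3 CPM in control (SD, n = 2 each). The groups did not overlap, and the log2 difference of 0.19 ± 0.09 (SE; 95% interval −0.01 to 0.39) did not pass. Slc6a8, the creatine transporter gene, had 271 and 282 CPM in 6OHA against 257 and 257 CPM in control, likewise without overlap, with a log2 difference of 0.11 (95% interval −0.08 to 0.30). Slc6a12, encoding the betaine and GABA carrier BGT1, had 53.7 and 55.3 CPM in 6OHA against 59.5 and 62.0 CPM in control, lower without overlap and with a 95% interval from −0.37 to 0.06. Slc6a13, encoding the GABA and taurine carrier GAT2, had 3.38 and 4.89 CPM in 6OHA and 6.13 and 4.73 CPM in control, which overlapped. Slc6a9, encoding the glycine carrier GLYT1, had 15.6 and 17.1 CPM in 6OHA and 16.4 and 18.2 CPM in control and overlapped too. The neutral amino acid carrier gene Slc6a19, at 0.487 and 0.515 CPM in 6OHA against 0.233 and 0.403 CPM in control, was higher without overlap, with a log2 difference of 0.69 and a 95% interval from −0.44 to 1.82.

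Families 36, 38 and 43 include carriers that feed or sense the lysosomal amino acid pool. Slc38a2, encoding SNAT2, the sodium-coupled glutamine and alanine carrier that cells raise under amino acid shortage, had 272 and 272 CPM in 6OHA against 239 and 225 CPM in control. The 6OHA libraries lay together above both control libraries, with means of 272 ± 0.119 CPM in 6OHA and 232 ± 9.96 CPM in control (SD, n = 2 each). The log2 difference of 0.23 ± 0.09 (SE; 95% interval 0.04 to 0.42) did not pass, with an adjusted p of 0.325 by edgeR and of 0.0355 with the GC correction. The GC correction was the only 1 of 16 alternatives in which Slc38a2 passed. Slc43a2, encoding the branched-chain amino acid carrier LAT4, had 99.2 and 113 CPM in 6OHA against 89.4 and 90.5 CPM in control, also without overlap. Its log2 difference was 0.24 ± 0.10 (SE; 95% interval 0.02 to 0.46) with an adjusted p of 0.394 by edgeR. Slc43a3, encoding a purine nucleobase carrier, had 19.6 and 22.7 CPM in 6OHA and 19.2 and 21.0 CPM in control and overlapped.

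The lysosomal proton-coupled carrier gene Slc36a1 had 130 and 144 CPM in 6OHA against 146 and 156 CPM in control, lower without overlap, with a 95% interval of the log2 difference from −0.35 to 0.07. Its relative Slc36a4 had 186 and 185 CPM in 6OHA and 186 and 164 CPM in control, and overlapped. Slc36a2, at 0.877 and 0.773 CPM in 6OHA against 0.979 and 1.53 CPM in control, was lower without overlap, with a log2 difference of −0.58 whose 95% interval of −1.38 to 0.23 was wide. Slc38a10 had 221 and 255 CPM in 6OHA and 218 and 243 CPM in control. Slc38a1, encoding the glutamine carrier SNAT1, had 165 and 178 CPM in 6OHA and 171 and 165 CPM in control. Both overlapped, as did Slc38a7, the lysosomal glutamine carrier gene, and Slc38a9, the lysosomal arginine sensor gene, with log2 differences of −0.0035 and −0.01. Slc38a6 had 70.9 and 71.5 CPM in 6OHA against 78.6 and 74.5 CPM in control without overlap, and 31.3% of its 31-base stretches occur in another transcript.

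Within each group, the transporter genes of high GC content tended to be lower in replicate 1 than in the other library. For 31 of the 47 genes the 2 within-group differences had the same sign. That count was not made over all tested genes, whose GC trend also ran the same way in both groups. No trait of the transporter genes is read from it. For the GC-rich Slc2a8 (63.8%) they were −0.51 in 6OHA and −0.29 in control, and for Slc2a1 (55.5%) −0.31 in 6OHA and −0.17 in control, on the log2 scale. For Slc7a11, at 44.2% GC, they were −0.00093 in 6OHA and 0.29 in control. With a GC trend fitted per library, 5 of the 47 transporter genes passed, Slc16a13, Slc16a10 and Slc38a2 as higher and Slc1a2 and Slc7a11 as lower, beside 759 of all genes tested.

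**Figure D5:**
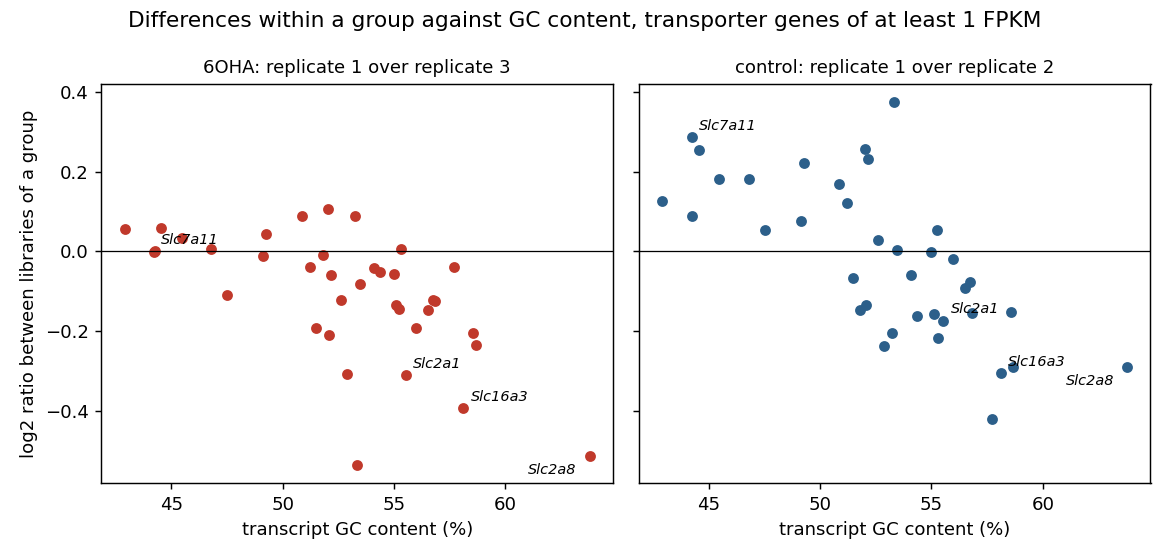
Log2 difference between the libraries of a group (replicate 1 over the other library) against transcript GC content in percent for the 37 transporter genes with a mean of at least 1 FPKM, 6OHA in the left panel and control in the right. The ratios are lower at higher GC content in both groups, with a Spearman rho over all 47 tested genes of −0.535 in 6OHA and −0.562 in control.

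The other 51 transporter genes had counts at 0 or near it and were not tested. A count of 0 allows a level up to the 3-count limit of each library, 0.0966 and 0.0850 CPM in 6OHA and 0.0705 and 0.0872 CPM in control. Those at 0 in all libraries included the neuronal and epithelial glutamate carrier genes Slc1a1, Slc1a6 and Slc1a7, the GABA carrier gene Slc6a11, the glycine carrier gene Slc6a5 and the glutamine carrier genes Slc38a3 and Slc38a5. Those with too few counts included the noradrenaline, dopamine and serotonin carrier genes Slc6a2, Slc6a3 and Slc6a4, the cystine heavy chain gene Slc3a1 and the leucine carrier gene Slc43a1. No level or fold is given for them.

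Genes that act on these carriers or on what they carry were read from 6 pathway lists in the same fit. The lists were chosen with earlier results of these data known. Of all tested genes, 1.39% were called higher and 0.629% lower, and 10.9% had an unadjusted p under 0.05 by edgeR. Of 10 tested partners and trafficking factors of transporters, 2 (20.0%) rose, the only 2 with an unadjusted p under 0.05. Tbc1d1, a Rab GTPase-activating protein that restrains glucose carrier traffic, had 122 and 123 CPM in 6OHA against 80.8 and 80.9 CPM in control, a log2 fold change of 0.60 ± 0.09 (SE) with an adjusted p of 0.00523 by edgeR. Arrdc3, an arrestin-domain adaptor of membrane proteins, had 23.2 and 21.4 CPM in 6OHA against 15.3 and 12.6 CPM in control, a log2 fold change of 0.67 ± 0.14 (SE) with an adjusted p of 0.0288. The Arrdc3 call held in 10 of 16 alternatives. It was lost without 6OHA replicate 1 (adjusted p 0.0956), without control replicate 2 (0.0661), without a filter on low counts (0.156) and on the FPKM and TPM scales (0.169 to 0.202). The accessory chain gene Emb, at 553 and 521 CPM in 6OHA and 525 and 477 CPM in control, and Txnip, an inhibitor of glucose uptake, at 438 and 441 CPM in 6OHA and 470 and 463 CPM in control, did not pass. The list median was 0.03.

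Of 21 tested genes of glucose phosphorylation and lactate handling none passed with edgeR, DESeq2 or limma-voom, and the list median was 0.08. An unadjusted p under 0.05 was found for 1 of them (4.76%), beside 10.9% of all tested genes. Ldha, which encodes the lactate dehydrogenase chain that favours lactate, had 655 and 713 CPM in 6OHA against 624 and 600 CPM in control, with a log2 difference of 0.16 that did not pass. Of 20 tested regulators of transporter genes none passed with edgeR or limma-voom. An unadjusted p under 0.05 was found for 2 (10.0%), near the 10.9% of all tested genes. These were also the 2 that DESeq2 called, the hypoxia-inducible factor genes Hif1a, with 206 and 186 CPM in 6OHA against 150 and 147 CPM in control, and Epas1, with 144 and 165 CPM in 6OHA against 112 and 124 CPM in control. Both were chosen for mention after their values were seen. Their adjusted p by edgeR was 0.0634 for Hif1a and 0.102 for Epas1.

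Of 21 tested genes that use glutamate, glutamine, cysteine or glutathione, 2 (9.52%) rose, and the list median was 0.14. An unadjusted p under 0.05 by edgeR was found for 7 (33.3%), 6 higher and 1 lower, beside 10.9% of all tested genes. Glul, encoding glutamine synthetase, had 135 and 140 CPM in 6OHA against 98.5 and 106 CPM in control, a log2 fold change of 0.43 ± 0.09 (SE) with an adjusted p of 0.0418 by edgeR. The call held in 7 of 16 alternatives and was lost without 6OHA replicate 1 (0.166), 6OHA replicate 3 (0.323) or control replicate 1 (0.0835), and 19.7% of its 31-base stretches occur in another transcript. Arg1, encoding arginase, which splits the arginine that Slc7a1 and Slc7a2 import, had 10.1 and 11.3 CPM in 6OHA against 1.77 and 2.13 CPM in control. Its log2 fold change was 2.47 ± 0.19 (SE) with an adjusted p of 9.52e-05, and the call held in 16 of 16 alternatives.

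The kinase complex mTORC1 responds to the lysosomal amino acid pool. Of 24 tested genes of amino acid sensing by mTORC1, 4 (16.7%) had an unadjusted p under 0.05 by edgeR, all higher. That share was 10.9% over all tested genes. The list median was 0.02, and 1 of the 24 (4.17%) rose, beside 1.39% of all tested genes called higher. This was Castor2, a relative of the arginine sensor gene Castor1, with 37.0 and 42.5 CPM in 6OHA against 23.0 and 23.5 CPM in control, a log2 fold change of 0.77 ± 0.12 (SE) with an adjusted p of 0.00496 by edgeR. Its call was lost without a filter on low counts (0.0542) and on the FPKM and TPM scales. Of 20 tested lysosomal, vesicular and mitochondrial transporters outside the 10 families, none passed with edgeR or limma-voom and 3 had an unadjusted p under 0.05, with a list median of 0.02. DESeq2 called 1 of them, Slc15a3, a lysosomal carrier of peptides and histidine, with 462 and 471 CPM in 6OHA against 334 and 384 CPM in control and an adjusted p of 0.0860 by edgeR. Slc15a3 passed in 3 of 16 alternatives, the DESeq2 test, the GC correction and the run without control replicate 2, with adjusted p from 0.00201 to 0.398 over the 16.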

How the data were processed

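RNA-seq libraries of MG5 cells, 2 given 6OHA and 2 untreated, were compared. The deposited table of the authors gives counts per gene, headed as read counts and held as whole numbers without normalization, per the file headers, and they may have been rounded from coverage. It also gives FPKM values, scaled by the authors for transcript length and library size, and TPM values, transcript shares scaled to a common sum, both deposited beside the counts per the file headers. Per the labels' protocols, RNA was isolated with RNAiso and poly-A RNA was turned into libraries by a kit that keeps strand. The submitters' processing notes name mm10, HISAT2 2.1.0 and StringTie 2.1.3b, and besides them Trimmomatic 0.38, SAMtools 1.9, bcl2fastq 2.20.0 and Bowtie2, without saying what each was used for. How reads were counted, and whether strand was used, is not given in the sources used here.

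Of 45777 genes, 14634 passed filterByExpr (edgeR 4.0.16), and these were scaled by TMM and tested with edgeR's quasi-likelihood test, group as the only term, with Benjamini-Hochberg adjustment over all tested genes. CPM are TMM-scaled, and each log2 difference is 6OHA minus control. The transporter genes were read out of that fit, with no test over the list. In 10 simulated data sets, 3.78% of calls were false. These held no GC trend between libraries and no spread particular to a gene, so that share is not an error rate of the real data. Replicate libraries were not copies of each other (chi-square per degree of freedom 10.6 in 6OHA and 22.9 in control).

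The members and lists were chosen with earlier results of these data known. Named members were those past the threshold, the 2 most abundant of each family at 1 FPKM or more, the 6 with the smallest adjusted p that did not pass, and the 6 with the largest change at 1 CPM or more that did not pass. Other members are given so that each tested one is accounted for. Some members that were not tested are not reported here by name. From the other lists, genes past the threshold and the 2 most abundant were to be named; of those that did not pass, only a part is printed, and Ldha was added. Alternatives changed the scaling, the test (DESeq2 1.42.0, limma-voom of limma 3.58.1, edgeR's legacy mode), the filter, the unit (limma on log2 values of FPKM, after adding 1 or 0.1, or of TPM, after adding 1), the threshold, a GC trend per library and the libraries used. GC content was available for 93.3% of tested genes and 100% of the tested transporter genes. R 4.3.3 and Python 3.11.15 were used.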

Additional observations from a re-analysis of the deposited data

How the results depend on the processing

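No paired analysis was possible because the groups share only 1 replicate number (1 and 3 in 6OHA, 1 and 2 in control). With only 2 libraries a group, changes under 1.5-fold were often beyond reach. Among the 47 tested transporter genes, 1 passed in the reported analysis. DESeq2 size factors, the DESeq2 test and a minimum mean of 5 CPM each gave 2, all higher in 6OHA. No filter, log2(FPKM + 1), log2(FPKM + 0.1), log2(TPM + 1) and an adjusted p under 0.01 each gave 0. The GC trend gave 5, of which 3 were higher and 2 lower. Leaving out 1 library did not always call the same transporter genes. Without control replicate 1, Slc16a10 was called, at a log2 fold change of 0.61, and Slc16a13 was not. Without control replicate 2, Slc7a11 was called as lower, at −0.48, besides Slc16a13 as higher. Of all genes tested, 295 passed in the reported analysis, 310 with DESeq2 size factors, 430 with the DESeq2 test, 305 with a minimum mean of 5 CPM, 269 with limma-voom, 120 without a filter, 135 with log2(FPKM + 1), 149 with log2(FPKM + 0.1), 152 with log2(TPM + 1), 759 with the GC trend, 149 with an adjusted p under 0.01 and 266 to 397 when 1 library was left out. The cause was not tested, apart from the stricter threshold, which lowers counts by its construction.

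Slc16a13 passed in 11 of 16 alternatives, with log2 fold changes from 0.66 to 1.13 and adjusted p from 0.000943 to 0.104. Slc16a10 passed in 5 of 16, with log2 fold changes from 0.35 to 0.61 and adjusted p from 0.00774 to 0.315. Tbc1d1 passed in 13 of 16, losing its call on the FPKM and TPM scales. Scaling moved the median of all genes by −0.0264 to 0.0119 on the log2 scale.

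Some differences that did not pass changed sign. Over the runs that left out 1 library, the log2 differences ran from −0.052 to 0.24 for Aldoa, −0.062 to 0.14 for Gpx4, −0.062 to 0.021 for Lamtor2, −0.044 to 0.35 for Slc16a3, −0.0060 to 0.12 for Slc16a6 and −0.059 to 0.25 for Slc1a4. They ran from −0.16 to 0.15 for Slc2a1, −0.0083 to 0.17 for Slc36a4, −0.054 to 0.15 for Slc38a10, −0.030 to 0.18 for Slc43a3 and −0.085 to 0.063 for Slc7a8. On the log2(FPKM + 1) scale, Gpx4 was at −0.0059, Nfe2l2 at −0.0056, Slc38a10 at −0.0063 and Slc43a3 at −0.0079, and with 0.1 added they were at −0.0059, −0.0057, −0.0064 and −0.0093. Slc2a1 was at 0.0012 with DESeq2 size factors, 0.00082 with the DESeq2 test and 0.0069 with the GC trend.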

Other observations

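Bcl6b, which encodes a transcriptional repressor and is not a transporter gene, lies 1387 bases from Slc16a13 on the same strand (chr11:70224127-70229798). It had 5.36 and 5.70 CPM in 6OHA against 3.12 and 2.94 CPM in control, a log2 fold change of 0.86 ± 0.19 (SE) with an adjusted p of 0.0445 by edgeR's quasi-likelihood test. The call held in 3 of 15 alternatives, with adjusted p from 0.0143 to 0.176, and the gene was chosen after its values were seen. The next protein-coding gene on that side, 0610010K14Rik, had a log2 difference of 0.10 with an adjusted p of 0.934.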
